A study of Mus musculus with 8 samples.

Results

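The GABA-A receptor subunit genes Gabra2, Gabra3, Gabra5, Gabrb1, Gabrb2, Gabrg1 and Gabrq were followed in mouse dorsal root ganglia (DRG) in which the transcription factor Dach1 was overexpressed. They are 7 of the 19 GABA-A receptor subunit genes of the mouse and were chosen with earlier results of these data known, then matched by gene symbol. All 7 passed the filter on low counts that left 17721 of 55414 listed genes for testing. Of the other 12 subunit genes, those reported here are described beside them. RNA was sequenced in bulk from DRG of E18.5 embryos on a mixed C57Bl/6J and CD1 background, 4 libraries in each of 2 groups. AD1 OE embryos (AdvillinCre/+;Rosa26Dach1/+) carried Cre recombinase at the Advillin locus, whose expression is found in sensory neurons, together with a Cre-dependent Dach1 transgene at Rosa26. Control embryos (Advillin+/+;Rosa26Dach1/+) carried the same transgene and no Cre. The comparison asked which transcripts differ when Dach1, after its normal restriction to some neuron subtypes, is again expressed broadly in late embryonic sensory neurons.

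GABA-A receptors are pentameric chloride channels opened by GABA, most often built from alpha, beta and gamma subunits, with delta, epsilon, theta or rho subunits in some receptors. Primary afferent neurons keep a high internal chloride concentration through the cotransporter NKCC1, so that GABA depolarizes them and, at their spinal terminals, dampens transmitter release (presynaptic inhibition). Which alpha and gamma subunits a receptor contains sets its GABA affinity, its kinetics, its place at or outside synapses and its response to benzodiazepines.

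The libraries held between 22339059 and 44025625 counts, and the totals of AD1 OE and Control overlapped (p = 0.8286 in a two-sided exact permutation test, where 0.0286 is the smallest p that 4 against 4 allows). The study counts its replicates as embryos, and p-values here measure the spread between the libraries of a group. Dach1 was higher in AD1 OE, at 95.9 ± 5.28 CPM (counts scaled to library size, where 1 CPM stands for 22.2 to 44.2 counts in these libraries; mean ± SD, n = 4) against 32.6 ± 1.64. Avil, the gene that carries Cre, was lower, at 464 ± 12.03 against 892 ± 35.1 CPM. Because Control embryos lack Cre, effects of Dach1, of Cre and of the altered Advillin copy cannot be told apart in this design. By Xist and 4 Y-linked genes, AD1 OE held 3 male libraries and 1 female, and Control 1 male and 3 female. The summed level of 8 general sensory neuron markers overlapped between AD1 OE (5387 to 6304 CPM) and Control (5931 to 6156 CPM), and 0 of them were called by edgeR, with 0 at an unadjusted p under 0.05. Of all 17721 tested genes, 3296 were at an unadjusted p under 0.05. The sum of 8 nociceptor markers did not overlap, from 2345 to 2508 CPM in AD1 OE libraries and from 3116 to 3405 CPM in Control, and 4 of the 8 were called lower (Calca, Tac1, Scn10a and Mrgprd). The part of this shift in the subunit differences below was not tested. In bulk RNA, fewer cells of a type and less RNA per cell cannot be told apart. Of 10 spinal cord markers, the sum ran from 14.0 to 21.1 CPM in AD1 OE and from 15.04 to 47.8 CPM in Control, with Control replicates 1 and 4 highest (exact permutation test, two-sided, p = 0.171). A single marker, Aqp4, made up most of this sum in every library, at 11.3 to 16.8 CPM in AD1 OE and 12.5 to 27.0 CPM in Control.

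In AD1 OE ganglia the gamma1 subunit gene Gabrg1 fell to 52.4% of its Control level and the theta subunit gene Gabrq rose to 202%. A gene counted as called where its adjusted p was below 0.005 and its log2 fold change beyond 0.25 in size. These 2 of the 7 were called, and by that rule 2.57% of all tested genes were called, 0.784% as higher and 1.78% as lower. At an adjusted p under 0.05, 5 of the 7 differed, Gabra3 and Gabrq being higher and Gabra2, Gabrb1 and Gabrg1 lower, against 6.55% of all tested genes. In the same 5 genes the CPM ranges of the groups did not overlap, against 13.0% of all tested genes. Since the genes were chosen with such results known, these shares describe the 7 and are no evidence that subunit genes differ more often. Over all 15 tested subunit genes, 7 passed 0.05. The remaining members, Gabra5 and Gabrb2, overlapped between the groups. The list thus held changes in both directions. The median log2 fold change of the 7 was 0.11, and that of all tested genes 0.00.

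**Figure D1:**
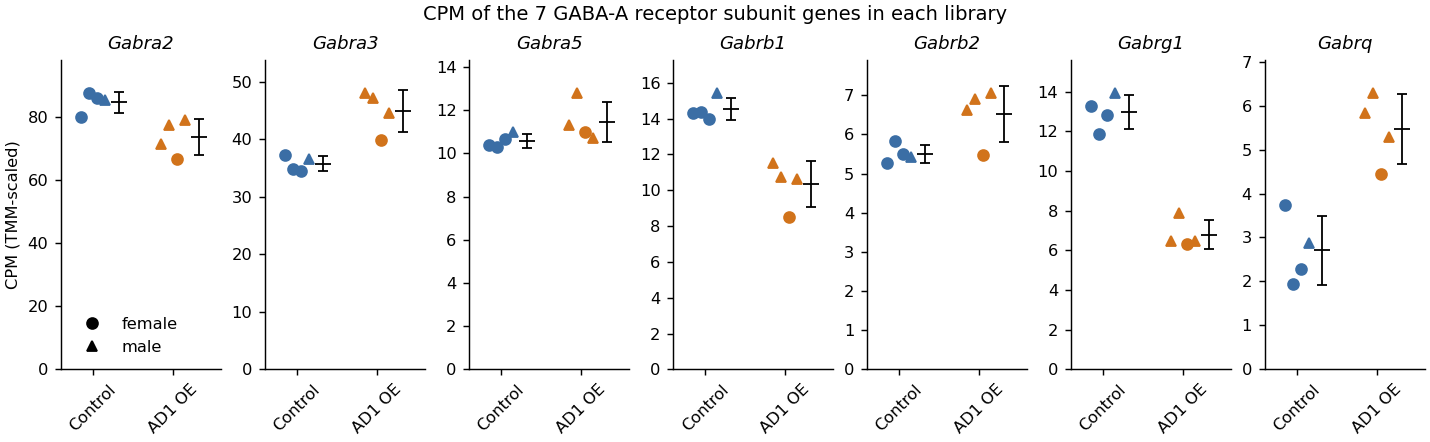
CPM of each of the 7 genes (vertical axes, each from 0) in the 4 Control (blue) and 4 AD1 OE (orange) libraries, with circles for female and triangles for male libraries and black bars for mean ± SD. Gabrg1 sits between 6.31 and 7.89 CPM for AD1 OE and between 11.9 and 13.9 CPM in Control, while Gabrq sits higher in every AD1 OE library than in any Control library.

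The genes that moved lie next to other subunit genes. To show the start regions of 2 neighbouring pairs, one lower and one higher in AD1 OE, the 250 bases before the RefSeq start are given in GRCm38.p6 coordinates, read along the strand of the gene. This is an older build than the GRCm39 genome of the counts, and only these printed regions use it. Capitals mark every CG dinucleotide, the TATA box motif TATAAA on either strand (TTTATA on the other) and the homeodomain core TAATTA, which is its own reverse complement.
Gabrg1, chr5:70842618-70842867, minus strand: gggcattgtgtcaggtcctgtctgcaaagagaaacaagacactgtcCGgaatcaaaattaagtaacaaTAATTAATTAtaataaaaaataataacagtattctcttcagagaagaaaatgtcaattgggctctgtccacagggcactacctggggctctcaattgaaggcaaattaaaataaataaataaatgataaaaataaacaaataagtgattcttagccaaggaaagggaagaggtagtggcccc
Gabra2, chr5:71095850-71096099, minus strand: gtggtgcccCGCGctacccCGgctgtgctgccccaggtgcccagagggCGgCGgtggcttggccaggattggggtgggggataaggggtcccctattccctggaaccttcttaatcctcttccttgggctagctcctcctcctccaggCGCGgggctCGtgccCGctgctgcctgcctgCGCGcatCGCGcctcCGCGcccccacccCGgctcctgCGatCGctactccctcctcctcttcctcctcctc
Gabra3, chrX:72656920-72657169, minus strand: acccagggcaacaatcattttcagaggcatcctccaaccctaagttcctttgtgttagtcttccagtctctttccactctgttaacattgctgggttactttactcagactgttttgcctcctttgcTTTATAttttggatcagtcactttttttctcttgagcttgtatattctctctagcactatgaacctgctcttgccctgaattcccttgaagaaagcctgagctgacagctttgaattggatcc
Gabrq, chrX:72824928-72825177, plus strand: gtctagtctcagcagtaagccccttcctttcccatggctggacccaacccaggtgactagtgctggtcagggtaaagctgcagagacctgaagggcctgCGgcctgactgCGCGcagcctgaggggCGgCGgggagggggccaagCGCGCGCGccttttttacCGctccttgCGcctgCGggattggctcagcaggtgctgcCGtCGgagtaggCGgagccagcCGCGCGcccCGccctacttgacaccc
Within each pair, 1 window was rich in CG and 1 was poor. The Gabrg1 window held 1 CG and 35.6% G and C, and the Gabra2 window 18 CG and 70.0%. The Gabra3 window held 0 CG and 42.4% G and C, and the Gabrq window 19 CG and 67.2%. The median over 32841 such windows was 6 CG and 52.4%. TAATTA occurred at 2 overlapping positions in the Gabrg1 window and in 4.8% of all windows, and TATAAA was found in the Gabra3 window and in 12.4% of all windows. The core TGTGGT bound by Runx factors, in either direction, was in none of the 4 windows and in 14.0% of all. These matches describe the letters of the windows and no binding.

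Among the alpha subunits, which contribute to the GABA binding site and help set receptor affinity, Gabra2 was lower in AD1 OE and Gabra3 higher. Gabra2 measured 71.5, 77.4, 66.6 and 79.0 CPM in AD1 OE replicates 1 to 4 and 79.8, 87.5, 86.0 and 85.3 CPM in Control replicates 1 to 4. The highest AD1 OE library lay just under the lowest Control library. The difference was small, with a log2 fold change of -0.20 ± 0.05 (SE) and an edgeR adjusted p of 0.0466, and it was not called. It missed 0.05 in 10 of 18 alternatives, including each of AD1 OE replicates 1, 2 and 3 and Control replicates 2, 3 and 4 left out, where the adjusted p ran from 0.0506 to 0.140.

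Gabra3 measured 48.0, 47.1, 39.9 and 44.5 CPM in AD1 OE and 37.2, 34.9, 34.4 and 36.6 CPM in Control. All 4 AD1 OE libraries lay above all Control libraries, and the lowest of them was the only female AD1 OE library. Gabra3 rose with a log2 fold change of 0.33 ± 0.06 and an adjusted p of 0.00615, which passes 0.05 and falls just outside the 0.005 of a call. It passed 0.05 in 18 of 18 alternatives and was called in 4, among them the fit without AD1 OE replicate 3 (adjusted p = 7.04e-04).

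Gabra5, whose subunit is known for extrasynaptic receptors that carry tonic current, measured 11.3, 12.8, 10.98 and 10.7 CPM in AD1 OE and 10.4, 10.3, 10.7 and 11.01 CPM in Control. The groups overlapped, and the log2 fold change of 0.11 ± 0.07 did not pass the test (adjusted p = 0.466). In the annotation its exons share 148 bases with Gm9962 on the opposite strand, 4.98% of their length, and Gm9962 had 65 counts over all libraries.

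The beta subunits complete the GABA binding site and carry sites for phosphorylation and membrane trafficking. Gabrb1 measured 11.5, 10.7, 8.49 and 10.7 CPM in AD1 OE and 14.3, 14.4, 14.0 and 15.4 CPM in Control. The gap between the groups exceeded the spread of Control, and AD1 OE replicate 3, the female library, was lowest. Gabrb1 fell with a log2 fold change of -0.49 ± 0.09 and an adjusted p of 0.00534, just outside the call. Without Control replicates 1 and 4 the value was -0.45 and the adjusted p 0.0658, and with a term for sex they were -0.60 and 7.94e-04.

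Gabrb2 measured 6.62, 6.91, 5.47 and 7.05 CPM in AD1 OE and 5.27, 5.82, 5.50 and 5.42 CPM in Control. In AD1 OE, 3 libraries lay above every Control library and the female one lay among them. The log2 fold change was 0.24 ± 0.10 with an adjusted p of 0.195.

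Gabrg1 encodes a gamma subunit that alters the pharmacology and clustering of the receptors it joins. It measured 6.49, 7.89, 6.31 and 6.48 CPM in AD1 OE and 13.3, 11.9, 12.8 and 13.9 CPM in Control, from 165 to 493 counts a library. The groups stood well apart, the nearest libraries being AD1 OE replicate 2 and Control replicate 2. Gabrg1 fell with a log2 fold change of -0.94 ± 0.09 and an adjusted p of 3.98e-05. It was called in 18 of 18 alternatives, with fold changes from -1.01 to -0.86 and adjusted p values up to 0.00127.

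Gabrq encodes the theta subunit, which joins alpha and beta subunits in a minority of receptors. It measured 5.83, 6.28, 4.44 and 5.29 CPM in AD1 OE and 3.74, 1.93, 2.28 and 2.88 CPM in Control, from 58 to 258 counts a library. Control libraries were spread from 1.93 to 3.74 CPM, and all lay under the lowest AD1 OE library. Gabrq rose with a log2 fold change of 1.03 ± 0.18. Its adjusted p of 0.004993 lay just inside the threshold of 0.005. The call held in 7 of 18 alternatives and was lost on leaving out AD1 OE replicate 1, 2 or 4 or Control replicate 2, 3 or 4, where the adjusted p ran from 0.0131 to 0.0211. All 18 alternatives kept an adjusted p under 0.05 and a fold change from 0.89 to 1.38.

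**Figure D2:**
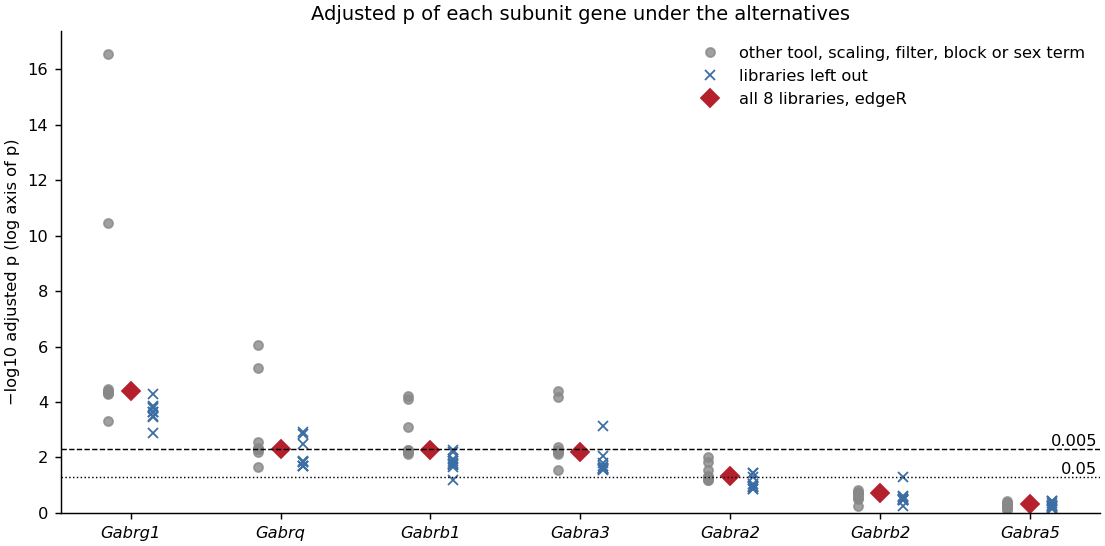
Adjusted p of each gene, as −log10, with all 8 libraries in edgeR (red diamonds), under other tools, scalings, filters, the replicate block or a sex term (grey circles) and with libraries left out (blue crosses); dashed and dotted lines mark 0.005 and 0.05. Gabrg1 lies above the dashed line in all 18 alternatives, Gabrq in 7, Gabra3 in 4 and Gabrb1 in 3.

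Because the sexes were unequally divided, the 7 genes were compared within each sex, where 1 group has a single library. No test was run within a sex, since an exact permutation test of 1 against 3 cannot go below p = 0.25. Gabrg1 had a log2 ratio of -1.0032 in females (6.31 CPM against a mean of 12.7) and -1.0024 in males (6.95 against 13.9). Gabrq, on the X chromosome, had 0.74 in females and 1.01 in males. Gabra3, also X-linked, had 0.17 in females and 0.35 in males, and Gabrb1 had -0.74 and -0.49. Gabra2 had -0.34 in females and -0.17 in males, and Gabra5 had 0.07 and 0.08. Only for Gabrb2 did the sign differ, with -0.02 in females and 0.34 in males. For genes whose full groups did not overlap, the direction within a sex is fixed by that, so these ratios describe sizes and add no support for a direction. With a sex term in the edgeR fit, Gabrg1 and Gabrb1 were called, and Gabrq (0.89, adjusted p = 0.0228) and Gabra3 (0.26, adjusted p = 0.0276) were not.

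The levels were also set beside the spinal cord markers, since these were highest in 2 Control libraries. In the 2 Control libraries with low marker sums, replicates 2 and 3 at 15.04 and 21.5 CPM, Gabrg1 measured 11.9 and 12.8 CPM and Gabrq 1.93 and 2.28 CPM. In replicates 1 and 4, with sums of 47.8 and 32.7 CPM, Gabrg1 measured 13.3 and 13.9 CPM and Gabrq 3.74 and 2.88 CPM. Within Control, both genes were thus lower in the 2 libraries with lower marker sums. Within AD1 OE neither gene followed the sums, which were 14.0, 18.0, 17.7 and 21.1 CPM in replicates 1 to 4. In the same order Gabrg1 measured 6.49, 7.89, 6.31 and 6.48 CPM, and Gabrq 5.83, 6.28, 4.44 and 5.29 CPM. Control replicate 1 also had the highest sum of 6 sympathetic neuron markers, 14.6 CPM. That sum was 1.26 to 1.98 CPM in Control replicates 2 to 4 and 1.81 to 3.86 CPM in AD1 OE. Without Control replicates 1 and 4, an alternative added after seeing the data, the log2 fold change of Gabrg1 was -0.86 (adjusted p = 0.00127) and that of Gabrq 1.38 (adjusted p = 0.00145), and both were called.

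**Figure D3:**
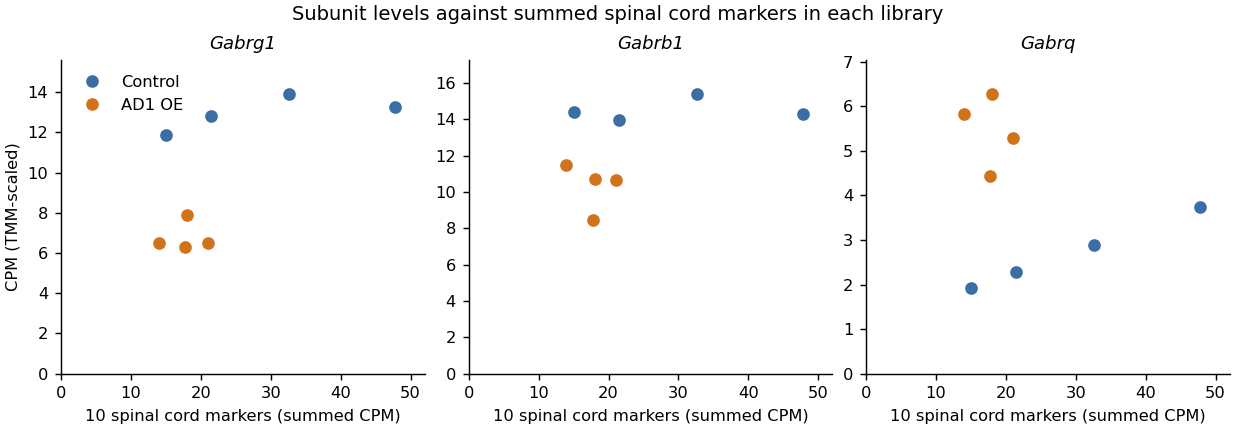
CPM of Gabrg1, Gabrb1 and Gabrq (vertical axes, from 0) against the summed CPM of 10 spinal cord markers (horizontal axes) in each of the 4 Control (blue) and 4 AD1 OE (orange) libraries. The points of Control replicates 2 and 3 have sums of 15.04 and 21.5 CPM, within or next to the AD1 OE range of 14.0 to 21.1 CPM, and those of replicates 1 and 4 lie to the right of it.

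Subunit genes lie in clusters, and by their order in the GENCODE annotation 4 of them follow each other on chromosome 5, namely Gabrg1, Gabra2, Gabra4 and Gabrb1, with Cox7b2 between Gabra2 and Gabra4. With all 8 libraries, the 4 were lower in AD1 OE at an adjusted p under 0.05, which for Gabra2 and Gabra4 depended on the setting. Gabra4, another alpha subunit gene, was at 2.63 ± 0.28 CPM against 3.84 ± 0.51 CPM (-0.54 ± 0.13, adjusted p = 0.0286), but it passed 0.05 in only 10 of 18 alternatives. The failures included the fit with a sex term (adjusted p = 0.0740), those with AD1 OE replicate 1 or 3 or any of Control replicates 1, 3 and 4 left out (0.0586 to 0.102), and that without Control replicates 1 and 4 together (0.207). Gabra4 and Gabrb1 start on opposite strands, 387 bases apart, and their annotated exons share 46 bases. Whether reads were counted by strand is not stated, and these bases are 0.76% of Gabra4 and 0.33% of Gabrb1.

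On the X chromosome, Gabra3 and Gabrq are adjacent and transcribed from opposite strands, and both were higher. Gabre, the epsilon subunit gene beyond the Magea10 gene, overlapped between the groups, with 2.50 ± 0.14 CPM for AD1 OE and 2.42 ± 0.59 CPM for Control (log2 fold change 0.06 ± 0.16, adjusted p = 0.890). On chromosome 7, Gabrg3, a gamma subunit gene beside Gabra5, was at -0.45 ± 0.18 with an adjusted p of 0.187, and its CPM overlapped between the groups.

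**Figure D4:**
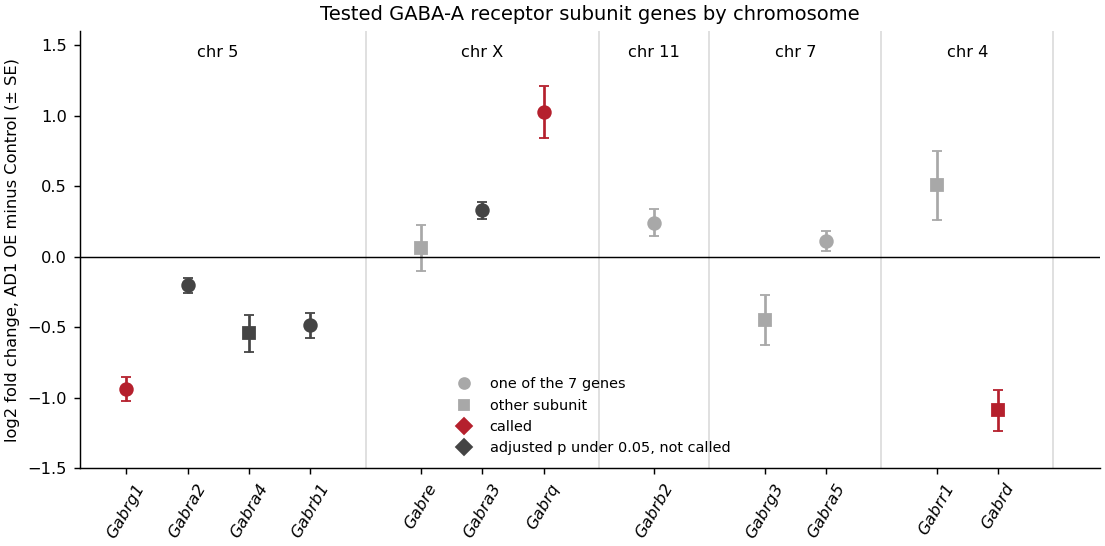
Log2 fold change of AD1 OE against Control (vertical axis, ± SE) for 12 of the 15 tested subunit genes in their order along each chromosome, with circles for the 7 genes followed here and squares for the other subunits. Red marks called genes and dark grey those at an adjusted p under 0.05; the 4 genes of chromosome 5 all lie below 0, from -0.94 to -0.20.

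Of the other 12 subunit genes, 8 were tested and 1 was called. Gabrd, the delta subunit gene of extrasynaptic receptors with high GABA affinity, measured 1.04, 0.85, 0.99 and 1.04 CPM in AD1 OE and 2.34, 1.99, 2.16 and 1.98 CPM in Control, from 19 to 70 counts a library. It fell with a log2 fold change of -1.09 ± 0.15 (adjusted p = 6.87e-04). The call was lost in 1 of 18 alternatives, without Control replicates 1 and 4 (adjusted p = 0.0107). The rho subunit gene Gabrr1 was at 0.96 ± 0.29 CPM against 0.69 ± 0.12 CPM (adjusted p = 0.301). Gabra6, Gabrp, Gabrr2 and Gabrr3 had at most 13 counts in any library and were not tested.

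To compare levels between genes, CPM was divided by the length of all annotated exons in kilobases (kb). In Control, the per-length levels of the 7 genes were, in falling order, 11.1 ± 0.44 CPM per kb for Gabra2, 9.11 ± 0.34 for Gabra3, 3.56 ± 0.11 for Gabra5, 1.65 ± 0.11 for Gabrg1, 1.05 ± 0.04 for Gabrb1, 0.87 ± 0.04 for Gabrb2 and 0.51 ± 0.15 for Gabrq. No neighbours in this order overlapped in their ranges. In AD1 OE, Gabra3 came first at 11.4 ± 0.92 CPM per kb, ahead of Gabra2 at 9.63 ± 0.75, and these ranges overlapped. Behind Gabra5 at 3.85 ± 0.31 followed Gabrb2 at 1.02 ± 0.11, Gabrq at 1.02 ± 0.15, Gabrg1 at 0.86 ± 0.09 and Gabrb1 at 0.75 ± 0.09, and each overlapped its neighbour. The order depends on the length used. Per kb of the longest transcript, Gabrb2 (1.38 ± 0.06) came before Gabrb1 (1.06 ± 0.05) in Control, and in AD1 OE Gabrb2 stood at 1.63 ± 0.18, Gabrg1 at 1.423 ± 0.15, Gabrq at 1.105 ± 0.16 and Gabrb1 at 0.75 ± 0.09. By either length, Gabrq was lowest of the 7 in Control and Gabrb1 lowest in AD1 OE.

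The summed per-length level of all 19 subunit genes was 80.7 ± 4.61 CPM per kb in AD1 OE and 78.2 ± 1.52 in Control, with overlapping ranges, and that of the 7 genes was 28.6 ± 2.04 and 27.8 ± 0.42. Composition differed more than the total. Of all alpha subunit transcripts per length, Gabra2 made up 41.9 ± 1.30% in Control and 34.3 ± 1.15% in AD1 OE, and Gabra3 34.5 ± 1.51% and 40.8 ± 1.90%. Neither gene's shares overlapped between the groups. With the length of the longest transcript in place of all exons, Gabra2 stayed ahead in AD1 OE (37.0% against 36.1% for Gabra3), so the exchange of first place depends on the length used. Of gamma transcripts, Gabrg1 made up 7.09 ± 0.62% in Control and 3.68 ± 0.27% in AD1 OE. Of beta transcripts, Gabrb1 went from 4.01 ± 0.28% to 2.80 ± 0.30%.

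**Figure D5:**
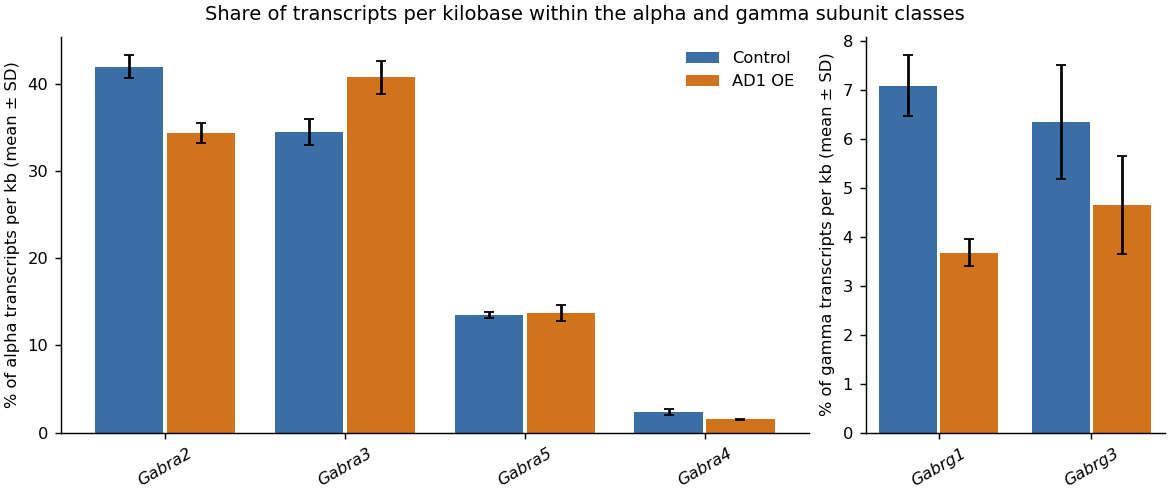
Share of each gene in its subunit class (vertical axes, percent of transcripts per kb, bars from 0, mean ± SD over 4 libraries) for 4 alpha genes (left) and for Gabrg1 and Gabrg3 (right) in Control (blue) and AD1 OE (orange). The Gabra2 bar falls from 41.9% to 34.3%, the Gabra3 bar rises from 34.5% to 40.8%, and the Gabrg1 bar falls from 7.09% to 3.68%.

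Around the receptor, 42 genes were listed, of which 41 were tested, 1 was called and 4 passed 0.05 (1 higher and 3 lower). The called share is close to the 2.57% of all tested genes. The called gene was Kctd8, an auxiliary subunit of the metabotropic GABA-B receptor, at 57.1 ± 3.61 CPM in AD1 OE against 70.1 ± 1.23 CPM (-0.30 ± 0.05, adjusted p = 0.00238). It was the only called gene of 5 GABA-B genes, and the receptor genes Gabbr1 (log2 fold change -0.06), the most abundant of the list per length, and Gabbr2 (0.04) overlapped between the groups. The number of called genes among the 41 was 0 when any library but AD1 OE replicate 4 was left out.

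Of 16 genes for clustering and trafficking of GABA-A receptors, 0 were called by edgeR, 1 passed 0.05 and 3 had an unadjusted p under 0.05. Over all 17721 tested genes, 3296 had an unadjusted edgeR p under 0.05, which is the background for this and the following lists. Plcl1, which encodes a protein that binds GABA-A receptors and phosphatases, fell by 0.27 on the log2 scale (adjusted p = 0.0157). Gabarap, the most abundant of these genes per length, which encodes a binding partner of gamma subunits, measured 214 ± 8.68 CPM in AD1 OE against 218 ± 12.6 CPM (-0.03, adjusted p = 0.813). Gphn, which encodes the synaptic scaffold gephyrin, had a log2 fold change of 0.06 with overlapping groups. Of 8 genes for GABA synthesis, transport and breakdown, 0 were called, 1 passed 0.05 and 3 had an unadjusted p under 0.05. Abat, the GABA transaminase, fell by 0.18 on the log2 scale (adjusted p = 0.0448). The GABA transporter gene Slc6a13, the most abundant of the list per length, was at 0.17 (adjusted p = 0.414) with overlapping groups. Gad2 (-1.38, adjusted p = 0.201) and Slc32a1 (-1.22, adjusted p = 0.2498), which mark GABA neurons, averaged 0.39 and 0.64 CPM in AD1 OE against 1.04 and 1.501 CPM in Control. The higher Control levels were those of replicates 1 and 4, the libraries high in spinal cord markers, at 1.89 and 1.44 CPM for Gad2 and 2.75 and 2.06 CPM for Slc32a1. Control replicates 2 and 3 lay within the AD1 OE range for both genes. Without replicates 1 and 4 the log2 fold change was -0.06 for Gad2 (adjusted p = 0.985) and 0.09 for Slc32a1 (adjusted p = 0.969), the sign of the latter having turned.

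Of 8 genes for chloride handling, 0 were called, 0 passed 0.05 and 1 had an unadjusted p under 0.05. Slc12a2, which encodes NKCC1, measured 215 ± 8.07 CPM with AD1 OE and 212 ± 15.02 CPM in Control, a log2 fold change of 0.02 ± 0.05. Stk39, which encodes a kinase that activates NKCC1 and is the most abundant of the list per length, was at -0.02 (adjusted p = 0.795). The chloride exporter gene Slc12a5 (KCC2) was at 7.59 ± 1.47 CPM against 11.7 ± 4.40 CPM (-0.62 ± 0.22, adjusted p = 0.146). Here too Control replicates 1 and 4 were highest, at 17.6 and 12.6 CPM, while replicates 2 and 3 (7.91 and 8.84 CPM) lay within the AD1 OE range of 6.64 to 9.75 CPM. Without replicates 1 and 4 the value was -0.14 (adjusted p = 0.787). Of 5 glycine receptor genes, 4 were tested and 0 were called, with 2 at an unadjusted p under 0.05. Glrb, the beta subunit gene and the most abundant of them per length, was at 0.05 (adjusted p = 0.687). Glra1 was higher in AD1 OE at 0.88 ± 0.18 CPM against 0.29 ± 0.23 CPM (1.63 ± 0.43, adjusted p = 0.0432), from 1 to 45 counts a library.

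The tested genes whose level followed Gabrg1 most closely over the 8 libraries were Rhov (Pearson's r = 0.994), Meis1 (0.990), Cpb1 (0.988), Palmd (0.987) and Brinp3 (0.987), and 4 of these 5 were called lower. For Gabrq they were Gm28875 (0.982), Pja1 (0.981), Sulf1 (0.978), Cldn10 (0.966) and Snhg5 (0.963), of which Sulf1 and Cldn10 were called higher. These correlations used levels already scaled for library depth, and they describe points that share the group difference and the unequal division of the sexes.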

How the data were processed

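RNA from DRG was sequenced with a stranded Illumina mRNA kit. The authors aligned reads to GRCm39 with STAR 2.7.8a, counted them per Ensembl gene with featureCounts 2.0.1 and deposited raw counts, 1 file per library, neither normalized nor pooled. Groups came from the genotypes in the labels. Of 55414 IDs, 52133 had a symbol in GENCODE M21 (GRCm38), which also gave gene order and exon lengths. RefSeq windows (GRCm38.p6) were matched by symbol for 7 of the 7 genes and 15 of the 19 subunit genes.

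Counts were filtered with filterByExpr, scaled by TMM and compared by the quasi-likelihood F test of edgeR 4.0.16 (R 4.3.3) with Benjamini-Hochberg adjustment over all 17721 tested genes. Fold changes and adjusted p values come from that fit, and CPM from the same scaling. The common biological coefficient of variation was 8.22%. Correlations used log2(CPM + 0.5) over genes averaging 1 CPM or more. Replicates differed beyond sampling noise (chi-square per degree of freedom 4.37 to 12.1), and reads carried no molecular identifiers. The 18 alternatives were DESeq2 1.42.0, limma-voom 3.58.1, 3 scalings, 2 filters, the replicate block, a sex term, each library left out, and Control replicates 1 and 4 left out. The edgeR, limma-voom and DESeq2 fits with genotype only and default scaling and filter were tested on simulated data. The other alternatives were not. The text names the 7 genes, the other subunits (some are not reported here), called genes and the most abundant gene of each pathway list, neighbouring subunits, and the 5 genes most correlated with each called member; Gabbr2, Plcl1, Abat, Gphn, Gad2, Slc32a1, Slc12a2, Slc12a5, Glra1 and the nociceptor genes were chosen after their values were seen. The members and lists were chosen with earlier results of these data known.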

Additional observations from a re-analysis of the deposited data

Results flagged for a closer look

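In AD1 OE, Gabrg1 in replicate 2 (7.89 CPM) stood apart from the next library (6.49 CPM), the gap being 0.8875 of the whole range of the group. It was 1 of 24 groups of 4 libraries examined over 12 tested subunit genes, of which chance would mark about 1 in 20. Without this library the fold change of Gabrg1 was -1.01 and it was called.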

How the results depend on the processing

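Directions of all 7 members held in all 18 alternatives. Against 2 of 7 called (455 over all genes), DESeq2 called 4 of 7, and no filter on low counts 4 of 7 (747 over all genes). RLE scaling, upper-quartile scaling and a filter that required 1 CPM in 4 libraries each called 1 of 7. An adjusted p under 0.05 at any fold gave 5 of 7 (1161 over all genes), and with an absolute log2 fold change over 1 it gave 1 of 7, Gabrq (129 over all genes). Leaving out 1 library gave 1 to 3 of 7, and from 289 (without AD1 OE replicate 1) to 420 over all genes. Without Control replicates 1 and 4, 254 genes were called. Library totals as the only scaling changed the split of calls over all genes from 139 higher and 316 lower to 159 and 292.

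The replicate block gave 1 of 7 members, 348 genes in all and 0 of the pathway genes, with adjusted p values of 0.0542 for Gabra2 and 0.0801 for Gabra4. Deviations of libraries with the same number correlated at -0.02, -0.06, -0.03 and 0.33, so the numbers were taken as names only.

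Among the 41 pathway genes, 1 was called in all libraries, 2 with DESeq2, 4 with no filter or at an adjusted p under 0.05, 0 with a sex term, and 0 to 1 with 1 library left out. The sign of 1 small value changed, Gabre without Control replicate 2 (-0.0409, with a range up to 0.2249 over the libraries left out). The change in share of the whole subunit pool, in percentage points, was -0.3293 for Gabrb1 and -1.35 for Gabrg1 with the longest transcript length, against -0.4179 and -1.041. The cause was not tested for the values above. At 3 counts per library, levels under 0.0678 to 0.135 CPM were not measurable, which limits Gabra6, Gabrp, Gabrr2 and Gabrr3.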
